A study of Mus musculus with 4 samples.

Results

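The cells described here were Mmp12 or Gpnmb macrophages of mouse liver. They were 398 of the 36150 barcodes that passed the filter (1.10%, exact 95% interval 0.996 to 1.21) and 22.1% of 1801 C1q barcodes. C1q barcodes are filtered barcodes with at least 5 UMIs (counted RNA molecules) of the complement genes C1qa, C1qb and C1qc. They also met the sinusoidal endothelial and lymphocyte limits given below. A barcode was taken when it held at least 500 UMIs, 200 genes and under 20% mitochondrial UMIs, at least 5 C1q UMIs and at least 2 UMIs of Mmp12 and Gpnmb together. It also had to hold under 2 UMIs of the Kupffer cell genes Clec4f, Timd4 and Vsig4, under 3 of the sinusoidal endothelial genes Clec4g, Dnase1l3, Gpr182, Stab2 and Ehd3, and 0 of the lymphocyte genes Cd3d, Cd3e, Cd3g and Cd79a. The levels of these 17 genes chose the cells and are given as a description only. The study profiled liver cancer raised in mice by gene induction with single-cell RNA sequencing. Normal liver (HCC-NL) stood for week 0, and tumor was sampled in week 4 (the HCC-ES sample), in week 8 (HCC-MS) and once more later (HCC-LS), for which the sample's label gives week 10 and the series text week 12; each group was 1 sample. The inducing gene, its promoter, the strain, the age and the number of animals behind each sample are not given in the sources used here. Barcodes of the joined matrix end in a suffix from 1 to 4, and each suffix was taken here as 1 library. Which suffix belongs to which sample is not stated, so libraries are called by number, all cells count as 1 pooled sample, and no week is compared or inferred. Without replicates there is no p-value, and the 95% intervals cover the error of counting alone.

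Lipid-associated macrophages are tissue macrophages known for taking up lipid and dying cells and for a rich lysosomal content. Their usual marker genes include the lipid receptor Trem2, the fatty acid binding proteins Fabp4 and Fabp5, the lysosomal membrane proteins Gpnmb and Cd63, the galactose-binding lectin Lgals3 and the secreted matrix protein Spp1. In liver they are told apart from Kupffer cells, the resident macrophages of the sinusoids, and from monocytes that have recently left the blood. Mmp12 encodes an elastase secreted by macrophages.

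Libraries 2 and 4 held most of these macrophages. The cells numbered 4, 296, 15 and 83 in libraries 1 to 4, which were 0.0437%, 3.64% (3.25 to 4.07), 0.147% and 0.954% (0.761 to 1.18) of the filtered barcodes. As a share of the C1q barcodes defined above they made up 0.885%, 33.6%, 7.25% and 31.9%. The shares of libraries 2 and 4 among C1q barcodes were thus close, while library 1 stood far below. Depth also differed: libraries 1 to 4 had medians of 1304, 3131, 1318 and 2484 UMIs per barcode and totals of 15593960, 49975828, 24012736 and 40617071 UMIs. With every barcode thinned to 2000 UMIs before the rule was applied, and shallower barcodes left out, 2, 182, 10 and 53 cells met the rule, or 0.0887%, 3.29%, 0.307% and 1.02%, against 0.133%, 4.45%, 0.337% and 1.27% of the same barcodes unthinned. The order of the libraries was the same before and after thinning. The macrophages had a median of 4857.5 UMIs, and 8 of them had a doublet score above 0.25. Of all 38072 barcodes 1425 had the same sequence as a barcode of another library; 12 of the 398 macrophages shared theirs with a filtered barcode of another library and 0 with another macrophage.

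**Figure D1:**
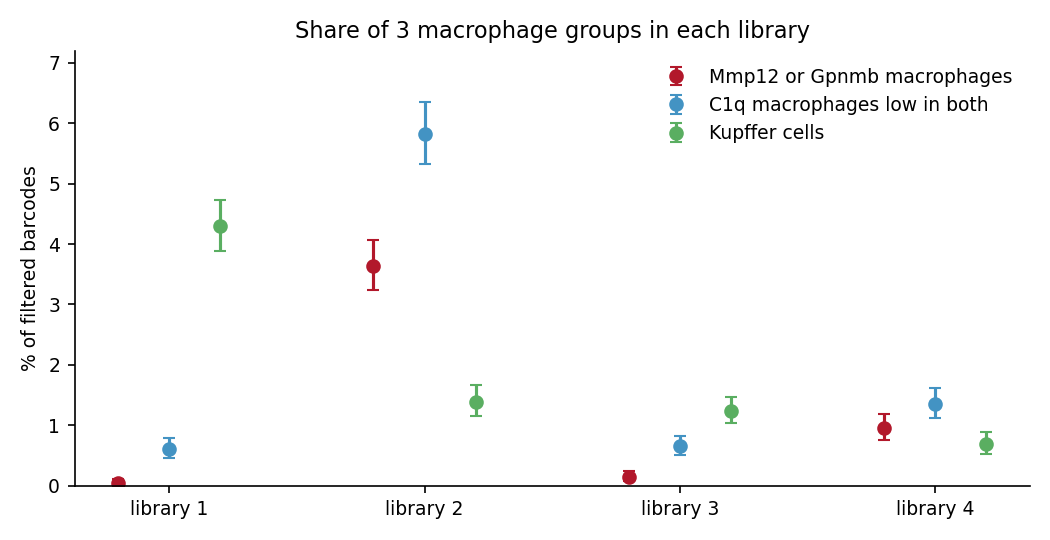
Share of filtered barcodes, in percent, that were Mmp12 or Gpnmb macrophages (red), C1q macrophages low in both genes (blue) or Kupffer cells (green) in each library, with exact 95% binomial intervals. The red points stand at 3.64% in library 2 and 0.954% in library 4 and near 0 in libraries 1 and 3.

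Within the 398 cells Mmp12 (ENSMUSG00000049723) was detected in 367 and Gpnmb (ENSMUSG00000029816) in 119. Both were detected in 88 cells, Mmp12 without Gpnmb in 279 and Gpnmb without Mmp12 in 31. The cells held 3492 Mmp12 UMIs and 939 Gpnmb UMIs, of which 184 Gpnmb UMIs came from a single cell of library 2. Levels are given as CPM, the UMIs of a gene per 1000000 UMIs of a group in a library. Those of Mmp12 were 2225, 1482, 1037 and 1722 in libraries 1 to 4, and those of Gpnmb were 0, 432, 415 and 296. The median cell held 6 UMIs of both genes together and 76 cells stood at the threshold of 2. These 76 cells just inside had a median depth of 2421.5 UMIs, with Fabp5 at 1481 CPM and Cd63 at 821 CPM. The 123 cells just outside, with 1 UMI, had a median depth of 2466 UMIs, with Fabp5 at 815 CPM and Cd63 at 709 CPM. C1qb was detected in 395 of the 398 cells and Lgals3, which the rule did not use, in 372.

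Promoters are printed for Mmp12 and Gpnmb, whose UMIs defined the cells, and for Mmp13, which was higher in them in both comparisons below, since of 11 genes searched, 9 were matched in the RefSeq table and these 3 held an AP-1 element. The element, TGAGTCA on either strand, is bound by Fos and Jun proteins and was searched from 250 bases before to 50 bases after each start in build GRCm38.p6; it was present in 5.20% of 32851 promoters. A gene counted when any of its listed starts held the element, while the share of 5.20% is of single promoters. The Mmp12 promoter printed is the second start listed, chr9:7347124-7347423 on the plus strand, with the element beginning 44 bases before the start. The first start listed for Mmp12 did not hold the element. The Gpnmb promoter is chr6:49036268-49036567 on the plus strand, with the element at base 9 after the start, and the Mmp13 promoter is chr9:7272264-7272563 on the plus strand, with the element 35 bases before the start. Capitals mark the element, read 5′ to 3′ on the plus strand.
Mmp12: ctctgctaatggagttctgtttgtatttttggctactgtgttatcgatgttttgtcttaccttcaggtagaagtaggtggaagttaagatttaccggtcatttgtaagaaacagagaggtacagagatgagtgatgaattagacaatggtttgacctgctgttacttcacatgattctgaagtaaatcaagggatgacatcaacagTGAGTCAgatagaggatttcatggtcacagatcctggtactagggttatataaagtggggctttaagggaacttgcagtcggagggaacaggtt
Gpnmb: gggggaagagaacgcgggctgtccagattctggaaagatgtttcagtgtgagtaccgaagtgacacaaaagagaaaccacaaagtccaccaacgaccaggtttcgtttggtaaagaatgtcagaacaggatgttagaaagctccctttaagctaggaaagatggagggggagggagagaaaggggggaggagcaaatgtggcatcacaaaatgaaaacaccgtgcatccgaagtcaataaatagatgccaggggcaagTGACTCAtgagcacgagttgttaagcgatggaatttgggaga
Mmp13: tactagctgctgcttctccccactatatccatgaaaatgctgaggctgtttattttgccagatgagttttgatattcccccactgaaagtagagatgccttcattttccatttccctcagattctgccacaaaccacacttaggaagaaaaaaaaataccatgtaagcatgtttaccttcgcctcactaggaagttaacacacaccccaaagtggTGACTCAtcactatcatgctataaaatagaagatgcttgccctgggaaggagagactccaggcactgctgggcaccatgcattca
The promoters of Lgals3, Cd63, Ctsl, Adam8, Trem2 and Spp1 did not hold it. The E-box CACGTG was present in 7.15% of promoters and, of the 9 genes, in that of Ctsl, and the M-box TCATGTGA was present in 0.986% and, of the 9, in that of Mmp12. A match describes letters in a window and was not tested as a binding site.

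The macrophage identity of the cells was read from genes that the rule did not use. In libraries 2 and 4 the phagocyte glycoprotein Cd68 stood at 1738 and 1573 CPM, the signalling adaptor Tyrobp at 3250 and 3474 CPM, the protease Ctss at 1550 and 1693 CPM and the growth factor receptor Csf1r at 242 and 328 CPM. All 12 macrophage genes were detected in both libraries. At 2000 UMIs per cell Cd68 was found in 92.3% (88.2 to 95.3) and 84.8% (73.9 to 92.5) of the macrophages of libraries 2 and 4 (unthinned, 97.0% and 89.2%). It was found in 2.34% and 0.741% of T cells (unthinned, 4.56% and 1.03%). T cells were barcodes with at least 2 Cd3 UMIs, under 2 C1q UMIs and under 3 UMIs of the sinusoidal endothelial genes. The C1q limit left out barcodes with more macrophage RNA, so shares in T cells can understate free RNA. The median depths were 5483 and 3376 UMIs in the macrophages and 3324.5 and 2597 UMIs in T cells. Cells under 2000 UMIs were left out of thinned shares, which kept 246 and 66 of the macrophages, 298 and 56 of the other C1q macrophages, 84 and 40 Kupffer cells and 428 and 135 T cells in libraries 2 and 4. Adgre1, which encodes F4/80, was found in 15.04% and 22.7% of the thinned macrophages (unthinned, 34.1% and 33.7%) and in 0% and 0.741% of thinned T cells (unthinned, 0.198% and 0.513%). Of other cell types, the B cell gene Ms4a1, the neutrophil gene Ly6g and the fibroblast gene Dcn were at 0 in the macrophages of libraries 2 and 4. Of 10 neutrophil genes 7 were at 0 in each of libraries 2 and 4, and of 9 stellate cell or fibroblast genes 8 and 6 were. The 10 T and NK cell genes that the rule did not use summed to 68.4 and 26.7 CPM and the 8 such B and plasma cell genes to 29.6 and 13.3 CPM. Other lists had more. The 10 dendritic cell genes summed to 761 and 587 CPM and the 10 erythroid and platelet genes to 610 and 211 CPM. The 5 sinusoidal endothelial genes outside the rule summed to 197 and 40.0 CPM, nearly all of it from the Fc receptor gene Fcgr2b, whose levels are given below. The 8 cholangiocyte genes summed to 170 and 152 CPM and the 9 vascular endothelial genes to 43.1 and 34.7 CPM. Hepatocyte transcripts were present, and the 15 hepatocyte genes summed to 7100 CPM in library 2 and 9465 CPM in library 4.

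The first comparison asked which genes separated these cells from the other C1q macrophages. The other cells were 711 barcodes chosen by the same rule but with under 2 UMIs of Mmp12 and Gpnmb, 473 of them in library 2 and 117 in library 4. Libraries 2 and 4 were the only ones with at least 20 cells of both groups, so each ratio of CPM was formed within them and averaged on the log2 scale. A gene counted as higher when the mean ratio was at least 2 with the same direction in both libraries and at least 50 UMIs in all, and as lower at the inverse of that ratio. Of 7642 genes measured, 119 were higher (1.56%) and 371 lower (4.85%). Depth and hepatocyte RNA moved with the groups: the Mmp12 or Gpnmb macrophages had median depths of 5483 and 3376 UMIs in libraries 2 and 4, against 2640 and 1880 UMIs in the low cells, and the hepatocyte list summed to 7100 and 9465 CPM, against 14010 and 16219 CPM in the low cells. Doublet scores above 0.25 were held by 1.35% and 3.61% of the Mmp12 or Gpnmb macrophages of libraries 2 and 4, against 4.23% and 9.40% of the low cells. The part of these differences in the ratios was not tested beyond the depth-matched values below and a doublet limit among the alternatives.

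Lipid-associated genes were among those higher. Of 18 such genes that the rule did not use, 6 were higher and 0 lower, against 1.56% and 4.85% of all genes, and 16 had ratios above 1 in both libraries. The median log2 ratio of the 18 was 0.90, against -0.08 over all genes. The 6 were the fatty acid binding protein Fabp5, the lectin Lgals3, the tetraspanin Cd63, the protease Ctsl, the lipoprotein lipase Lpl and the vesicle protein Vat1. In cells of 3000 to 6000 UMIs in both groups 5 of 18 were higher with a median log2 ratio of 0.67. This depth window, here and below, kept 75 of the macrophages and 145 low cells, all from 1 library. Its ratios and calls could therefore not be checked in both libraries. When the rule and the sums were both taken after thinning to 2000 UMIs, 1 of 18 was higher, with a median of 0.62.

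Fabp5 (ENSMUSG00000027533) stood at 0, 1711, 543 and 1624 CPM in the Mmp12 or Gpnmb macrophages of libraries 1 to 4, against 80.2, 539, 247 and 785 CPM in the low cells. Its ratios were 3.18 (2.95 to 3.42) in library 2 and 2.07 (1.80 to 2.38) in library 4, and the 0 in library 1 rests on 4 cells, whose interval reaches 274 CPM. At 2000 UMIs per cell it was found in 75.2% (69.3 to 80.5) and 59.1% (46.3 to 71.0) of the macrophages of libraries 2 and 4 (unthinned, 80.4% and 67.5%), against 43.0% (37.3 to 48.8) and 48.2% (34.7 to 62.0) of the low cells (unthinned, 50.7% and 44.4%) and 13.8% and 7.41% of T cells (unthinned, 22.6% and 11.8%). The thinned intervals of macrophages and low cells overlapped in library 4 and did not in library 2. Lgals3 (ENSMUSG00000050335) stood at 2002, 5407, 2921 and 4042 CPM, against 437, 2081, 653 and 1997 CPM in the low cells. Its ratios were 2.60 (2.502 to 2.70) and 2.02 (1.85 to 2.21) in libraries 2 and 4. Cd63 (ENSMUSG00000025351) stood at 74.2, 1364, 942 and 1058 CPM, against 276, 473, 247 and 541 CPM in the low cells. Its ratios were 2.89 (2.67 to 3.12) and 1.956 (1.65 to 2.33) in libraries 2 and 4, while the value of library 1 rests on 1 UMI. Ctsl, a lysosomal cysteine protease, had 901 and 360 CPM in libraries 2 and 4, against 335 and 175 CPM, and 25% of its UMIs in the macrophages of library 2 came from 1 cell. Lpl, which splits triglycerides of lipoproteins, had 1019 and 811 CPM, against 532 and 379 CPM, and Vat1 had 230 and 243 CPM, against 103 and 109 CPM. Over 16 alternatives the mean log2 ratio ranged between 0.95 and 1.67 for Fabp5, 0.85 and 1.42 for Lgals3 and 0.89 and 1.53 for Cd63. Leaving out library 1 or 3, counted among the alternatives, cannot change these ratios.

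The other 12 lipid-associated genes did not meet the rule. Trem2 (ENSMUSG00000023992) had 324 and 216 CPM in libraries 2 and 4, against 103 and 196 CPM in the low cells, with ratios of 3.16 (2.67 to 3.75) and 1.10 (0.793 to 1.53). The intervals of the libraries did not overlap, and in library 4 the ratio was not distinguishable from 1 at this depth. Spp1 (ENSMUSG00000029304), osteopontin, had 159 and 117 CPM, against 48.8 and 743 CPM, with ratios of 3.27 (2.57 to 4.20) and 0.158 (0.112 to 0.218), and 84% of its UMIs in the low cells of library 4 came from 1 cell. Fabp4 had ratios of 3.84 (3.39 to 4.36) and 0.898 (0.706 to 1.14). The proteases Ctsd and Ctsb, the acid lipase Lipa, the tetraspanin Cd9, the scavenger receptor Cd36, the protease inhibitor Cstb, Tyrobp and the apolipoprotein Apoe had ratios between 1.39 (Apoe, library 2) and 2.19 (Cd36, library 2), all above 1 in both libraries. The lipid droplet coat protein Plin2 had ratios of 1.35 (1.24 to 1.48) and 1.09 (0.886 to 1.33).

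**Figure D2:**
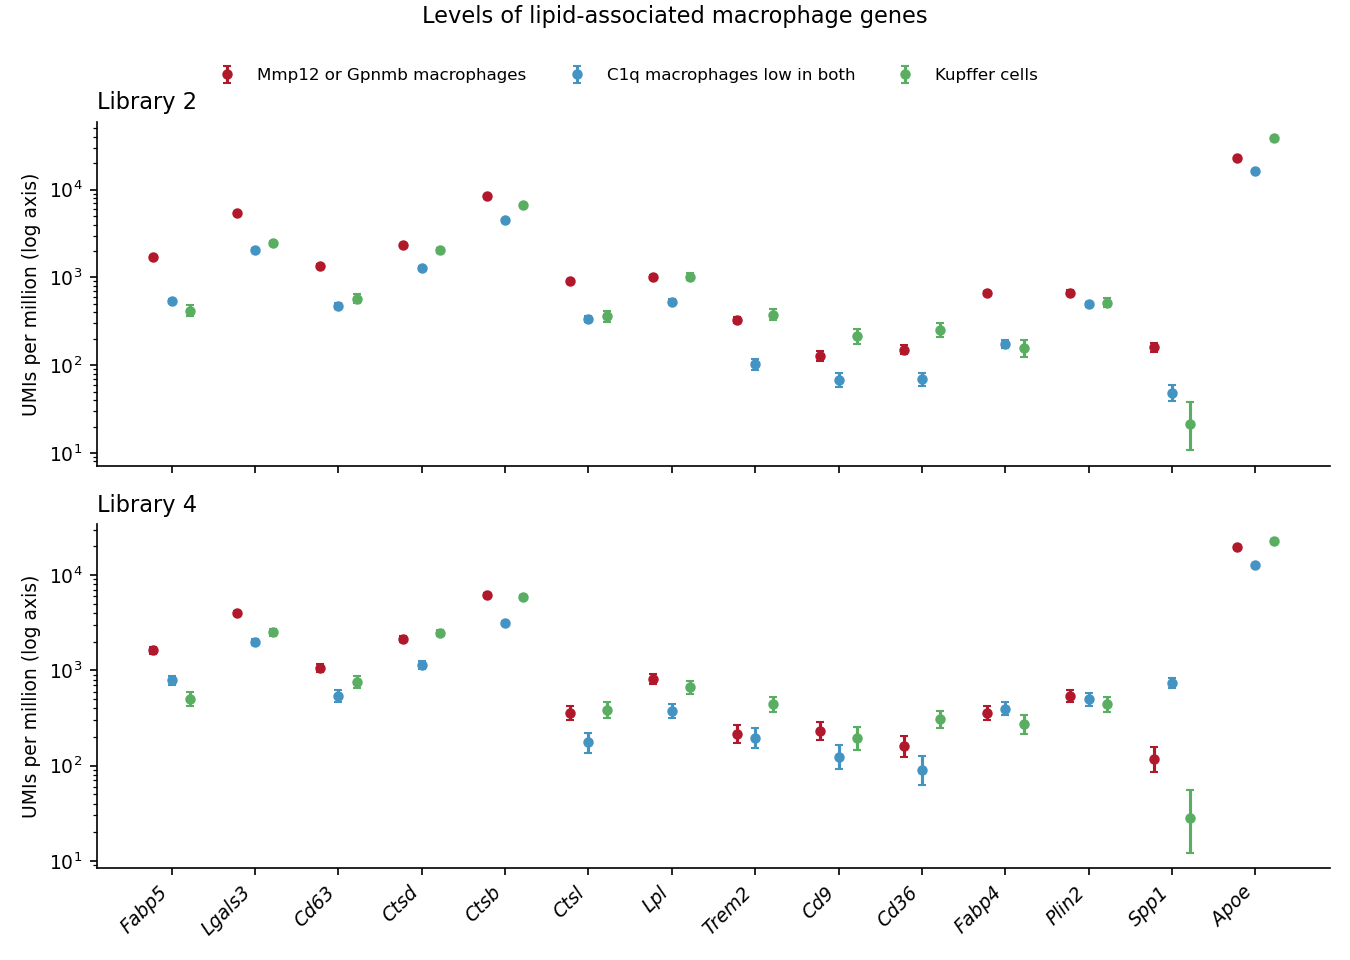
CPM (log axis) of 14 lipid-associated genes in Mmp12 or Gpnmb macrophages (red), C1q macrophages low in both (blue) and Kupffer cells (green) of libraries 2 and 4, with exact 95% Poisson intervals. Fabp5 and Lgals3 are highest in the red group in both libraries, while Trem2, Cd36 and Apoe are highest in Kupffer cells.

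Lysosomal genes stood above 1 together. All 30 of the lysosome list had ratios above 1 in both libraries, against 1949 of the 7642 genes measured, and their median log2 ratio was 0.76. By the rule 3 of the 30 were higher (Ctsl, Cd63 and Atp6v0d2) and 0 lower, against 1.56% and 4.85% of all genes. The lysosome list summed to 36098 CPM in library 2 and 29979 CPM in library 4, against 20656 and 17571 CPM in the low cells. In cells of 3000 to 6000 UMIs, all from 1 library, the median of the 29 genes measured was 0.37. It was 0.48 when the rule and sums were taken after thinning to 2000 UMIs. Atp6v0d2 (ENSMUSG00000028238), a subunit of the proton pump that acidifies lysosomes, stood at 0, 351, 47.9 and 232 CPM in libraries 1 to 4, against 0, 86.9, 0 and 103 CPM in the low cells, with ratios of 4.04 (3.38 to 4.84) and 2.24 (1.52 to 3.36) in libraries 2 and 4. Of the 12 general macrophage genes 0 met the rule, and their median log2 ratio was 0.31. Of 18 measured MiT/TFE factors and other macrophage regulators, which include activators of lysosomal genes, 1 was higher: Tfec had 29.6 and 56.0 CPM, against 21.9 and 5.30 CPM, and its mean log2 ratio was -0.075 in cells of 3000 to 6000 UMIs.

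Of 16 genes of lipid uptake and storage 3 were higher (Lpl, Fabp5 and Soat1) and 0 lower, and of 11 genes of cholesterol efflux 1 was higher (Nceh1) and 0 lower. Over all genes 1.56% were higher and 4.85% lower, so 1 call among 11 genes says little about that list. Soat1, which esterifies cholesterol, had 99.1 and 109 CPM in libraries 2 and 4, against 42.6 and 34.5 CPM in the low cells. Nceh1, which hydrolyses cholesterol esters, had 146 and 136 CPM, against 66.2 and 42.4 CPM. Of 13 matrix remodelling genes 2 were higher and 0 lower. Mmp13 (ENSMUSG00000050578), a collagenase, stood at 74.2, 279, 128 and 403 CPM in libraries 1 to 4, against 107, 83.6, 75.6 and 114 CPM in the low cells, with ratios of 3.33 (2.77 to 4.03) and 3.53 (2.501 to 5.08) in libraries 2 and 4. Adam8 (ENSMUSG00000025473), a membrane protease of leukocytes, had 137 and 112 CPM, against 40.4 and 7.96 CPM, with ratios of 3.39 (2.60 to 4.47) and 14.1 (4.50 to 71.0). The mean log2 ratio of Adam8 was 2.68, and 0.73 when the rule and sums were taken after thinning to 2000 UMIs. Among all genes the highest also included the membrane protein Pmp22, with ratios of 3.52 (2.62 to 4.81) and 3.57 (1.67 to 8.51), and the lysosomal membrane protein Gpr137b, with 3.26 and 2.35.

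Some genes of recruited monocytes were lower than in the low cells. Of 10 measured monocyte genes 0 were higher and 4 lower, against 1.56% and 4.85% of all genes, with a median log2 ratio of -0.69. Ly6c2 (ENSMUSG00000022584), the surface antigen of classical monocytes, had 17.8 and 2.67 CPM, against 127 and 53.0 CPM in the low cells, with ratios of 0.140 (0.0939 to 0.202) and 0.0503 (0.00121 to 0.314). Its level in library 4 rests on 1 UMI in the macrophages, 55% of its UMIs in those of library 2 came from 1 cell, and its mean log2 ratio lay between -4.18 and -2.00 over the alternatives. Plac8, another protein of monocytes, had 49.6 and 24.0 CPM, against 131 and 117 CPM, S100a6, a calcium-binding protein, had 86.2 and 34.7 CPM, against 202 and 79.6 CPM, and Ms4a4c, a membrane protein, had 59.3 and 18.7 CPM, against 170.5 and 29.2 CPM. Of 16 chemokines 1 was higher and 4 lower. The higher one was Ccl6, with 1101 and 389 CPM, against 563 and 162 CPM. Lower were the monocyte attractants Ccl2 and Ccl7, the neutrophil attractant Cxcl3 and the T cell attractant Cxcl9; Ccl2 had 227 and 85.3 CPM, against 560 and 162 CPM. Vcan, another monocyte gene, was at 0 in the macrophages of both libraries.

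Calls of cell cycle genes differed between the counts as deposited and depth-matched cells. Of 18 such genes 7 were lower and 0 higher in the counts as deposited, against 4.85% and 1.56% of all genes, with a median log2 ratio of -0.89. The proliferation antigen Mki67 had 33.4 and 18.7 CPM, against 65.6 and 45.1 CPM in the low cells. In cells of 3000 to 6000 UMIs, all from 1 library, 0 of 7 measured genes were lower, with a median of -0.21. With cells thinned to 1000 UMIs the median was 0.10. At 2000 UMIs per cell Mki67 was found in 6.50% and 6.06% of the macrophages (unthinned, 11.5% and 7.23%), against 7.05% and 5.36% of the low cells (unthinned, 10.1% and 5.13%) and 8.18% and 11.9% of T cells (unthinned, 15.7% and 11.8%). Interferon-induced genes (1 of 16 lower), MHC class II genes (0 of 8) and glycolysis genes (0 of 20) gave few or no calls. Hmox1, the haem-degrading enzyme, was higher with 1266 and 1165 CPM, against 676 and 427 CPM, and the cytokine Il1a with 205 and 144 CPM, against 82.99 and 55.7 CPM. Some of the genes with the lowest ratios were granule and haemoglobin genes whose UMIs in the low cells came mostly from single barcodes, such as S100a9 (100% and 90% from 1 barcode in libraries 2 and 4) and Hba-a1 (52% and 100%).

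The levels moved with the number of Mmp12 and Gpnmb UMIs, a number that also tracks depth. In library 2 Fabp5 stood at 467, 802, 1565, 1318 and 1948 CPM in cells with 0, 1, 2 to 3, 4 to 7 and 8 or more UMIs of both genes, and in library 4 at 724, 921, 1119.7, 482 and 2176 CPM. Cd63 stood at 404, 726, 854, 1010.0 and 1736 CPM in library 2 and at 447, 750.1, 819, 397 and 1359 CPM in library 4. In library 2 Cd63 was thus higher in each bin than in the bin before it, while in library 4 the bin of 4 to 7 UMIs, with 20 cells, stood below the others. Trem2 stood at 77.0, 197, 171, 206 and 441.4 CPM in library 2 and at 158, 281, 132, 85.1 and 289 CPM in library 4, so that in library 4 the cells with 1 UMI, outside the rule, stood close to those with 8 or more. Median depth in these bins was 2716.5, 2395, 2960, 5234 and 7306 UMIs in library 2 and 1764, 2794, 2372, 3100.5 and 5137 UMIs in library 4, and its part in the trend was not tested.

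**Figure D3:**
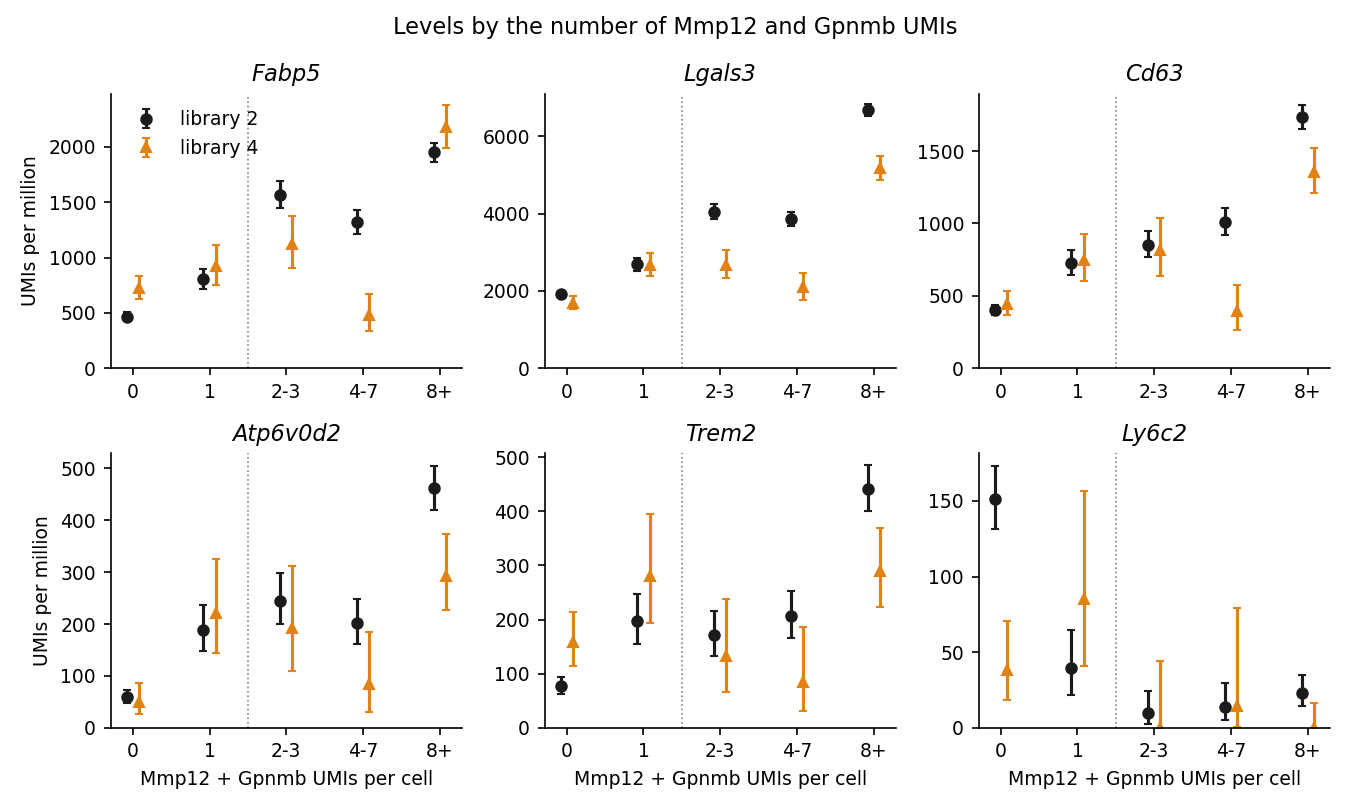
CPM of 6 genes in C1q macrophages of libraries 2 (circles) and 4 (triangles) by the number of Mmp12 and Gpnmb UMIs per cell, with exact 95% Poisson intervals; the dotted line marks the threshold of 2 UMIs. Fabp5, Lgals3, Cd63 and Atp6v0d2 are highest at 8 or more UMIs in both libraries, and Ly6c2 in library 2 is highest at 0.

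The second comparison set the cells beside 692 Kupffer cells, of which 113 were in library 2 and 60 in library 4. These filtered barcodes held at least 5 C1q UMIs and at least 2 UMIs of Clec4f, Timd4 and Vsig4, within the same endothelial and lymphocyte limits. Kupffer cells were not chosen on Mmp12 or Gpnmb, and some carried them: Mmp12 stood at 488 CPM in Kupffer cells of library 2 and 1220.0 CPM in those of library 4, and 97 of the Kupffer cells (1, 36, 22 and 38 in libraries 1 to 4) held at least 2 UMIs of both genes. Median depth was 5483 and 3376 UMIs in the Mmp12 or Gpnmb macrophages of libraries 2 and 4, against 3210 and 3606 UMIs in Kupffer cells. Of 6196 genes measured, 172 were higher (2.78%) and 134 lower (2.16%). The hepatocyte list summed to 7100 and 9465 CPM, against 6777 and 10521 CPM in Kupffer cells. This comparison shares its Mmp12 or Gpnmb macrophages with the first.

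Against Kupffer cells few lipid-associated genes stood out. Of the same 18 genes 3 were higher (Fabp5, Spp1 and Fabp4) and 0 lower, against 2.78% and 2.16% of all genes, and the median log2 ratio was 0.21, against -0.02 over all genes. Fabp5 had 1711 and 1624 CPM in libraries 2 and 4, against 420 and 501 CPM in Kupffer cells, with ratios of 4.07 (3.55 to 4.70) and 3.24 (2.70 to 3.92). Spp1 had 159 and 117 CPM, against 21.4 and 28.2 CPM, with ratios of 7.46 (4.11 to 15.1) and 4.16 (1.94 to 10.2). Fabp4 had 672 and 357 CPM, against 157 and 271 CPM, with ratios of 4.27 (3.41 to 5.41) and 1.32 (0.987 to 1.77), so that the call rests on library 2. Lgals3 had ratios of 2.21 (2.08 to 2.34) and 1.62 (1.48 to 1.77) and Cd63 of 2.37 (2.10 to 2.68) and 1.40 (1.19 to 1.66), above 1 in both libraries but under the mean of 2. Trem2, by contrast, had 324 and 216 CPM, against 377 and 440.7 CPM in Kupffer cells, with ratios of 0.860 (0.730 to 1.02) and 0.490 (0.366 to 0.653). Thinned to 2000 UMIs, a Trem2 UMI was held by 26.4% (21.0 to 32.4) and 22.7% (13.3 to 34.7) of the macrophages (unthinned, 38.2% and 39.8%), against 44.0% (33.2 to 55.3) and 50% (33.8 to 66.2) of Kupffer cells (unthinned, 52.2% and 56.7%) and 0.234% and 0.741% of T cells (unthinned, 0.198% and 0.513%). Cd36 had ratios of 0.597 (0.483 to 0.741) and 0.522 (0.369 to 0.733) and Apoe of 0.591 (0.581 to 0.601) and 0.867 (0.838 to 0.896). Trem2, Cd36, Apoe and Tyrobp, 4 of the 18 genes, had ratios below 1 in both libraries without meeting the rule, with Tyrobp at 0.886 (0.841 to 0.933) and 0.974 (0.896 to 1.06). The remaining genes had ratios between 0.592 (Cd9, library 2) and 2.49 (Ctsl, library 2), with Lpl at 1.00 and 1.22 and Ctsd at 1.15 and 0.868. With Kupffer cells limited to those under 2 Mmp12 and Gpnmb UMIs, 7 of 18 were higher with a median of 0.58, and the mean log2 ratio of Trem2 was -0.09 (-0.62 with all Kupffer cells). With sums pooled over all libraries the log2 ratio of Trem2 turned to 0.28. In cells of 3000 to 6000 UMIs 2 of 17 were higher and 1 lower, with a median of -0.01. These were 75 of the macrophages and 34 Kupffer cells, all from 1 library.

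Genes of Kupffer cell identity were lower than in Kupffer cells, which the choice of cells in part set up. Kupffer cells were chosen for Clec4f, Timd4 and Vsig4 and the macrophages for few of them, so genes expressed together with these follow the choice. Of 13 measured members that the rule did not use, 8 were lower and 0 higher, against 2.16% and 2.78% of all genes, with a median log2 ratio of -1.73. Cd5l (ENSMUSG00000015854), a secreted scavenger protein, stood at 148, 569, 335 and 581 CPM in libraries 1 to 4, against 2581, 4448, 2179 and 2570.3 CPM in Kupffer cells. 36% of its UMIs in the macrophages of library 4 came from 1 cell. Its ratios were 0.128 (0.119 to 0.138) and 0.226 (0.193 to 0.263) in libraries 2 and 4. Folr2 (ENSMUSG00000032725), a folate receptor of resident macrophages, stood at 0, 42.6, 79.8 and 16 CPM, against 720.2, 379, 448 and 233 CPM in Kupffer cells. The complement component C6 had ratios of 0.0277 (0.0129 to 0.0531) and 0.0796 (0.00899 to 0.330), the lectin Fcna of 0.330 and 0.201, the interleukin inhibitor Il18bp of 0.417 and 0.421 and the channel Kcna2 of 0.147 and 0.311. The transcriptional regulators Id1 and Id3 were lower by the rule, but Id3 had ratios of 0.129 (0.112 to 0.148) and 0.702 (0.575 to 0.857). Marco was at 0 in the macrophages of both libraries. Over the low cells, by contrast, 1 of 12 measured genes of this list was higher (Hmox1) and 0 lower, with a median log2 ratio of 0.54. The 16 genes of the list outside the rule summed to 3849 and 4151 CPM in the macrophages of libraries 2 and 4, against 2311 and 2695 CPM in the low cells. Outside that list the eosinophil attractant Ccl24 had 29.6 and 10.7 CPM, against 286 and 102 CPM, and the growth factor Hbegf 21.0 and 18.7 CPM, against 169 and 67.0 CPM. The lipoprotein genes Apoc1 (871 and 1064 CPM, against 4367 and 2722 CPM) and Pltp (741 and 453 CPM, against 1598 and 857 CPM) were lower, the only 2 of 11 cholesterol efflux genes to meet the rule.

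Some matrix, inflammatory and chemotactic genes were higher than in Kupffer cells. Of 13 matrix remodelling genes 6 were higher and 1 lower (Ecm1), against 2.78% and 2.16% of all genes, with a median log2 ratio of 0.97. Mmp13 had 279 and 403 CPM, against 89.4 and 190 CPM, with ratios of 3.11 (2.30 to 4.31) and 2.11 (1.54 to 2.94). Adam8 had 137 and 112 CPM, against 5.83 and 31.7 CPM, with ratios of 23.5 (7.94 to 115) and 3.53 (1.69 to 8.25). The adhesive protein Thbs1 had 41.5 and 48.0 CPM, against 1.94 and 14.1 CPM, and 67% of its UMIs in the macrophages of library 4 came from 1 cell. Plaur, the urokinase receptor, had ratios of 3.27 (1.964 to 5.84) and 1.89 (0.992 to 3.80), and the fibronectin gene Fn1 had 44.2 and 29.3 CPM, against 19.4 and 3.53 CPM, with a log2 ratio of -0.077 when sums were pooled over all libraries. Of 14 inflammatory genes 5 were higher and 0 lower, and 4 had ratios below 1 in both libraries. The cytokine Il1b had 452 and 299 CPM, against 189 and 162 CPM, and the prostaglandin synthase Ptgs2 had 70.0 and 13.3 CPM, against 7.78 and 0 CPM; the others were the cytokine Osm and the lectin receptors Clec4e and Clec4d. With cells thinned to 1000 UMIs 0 of 8 measured inflammatory genes were called. Of 6 receptors of chemotactic signals 3 were higher: the complement receptor C5ar1 had ratios of 3.63 (2.47 to 5.54) and 2.07 (1.203 to 3.71), Cxcr4 of 1.74 and 2.55 and Ccrl2 of 1.74 and 2.63. Of 15 chemokines 4 were higher (Ccl5, Cxcl1, Cxcl2 and Pf4) and 1 lower (Cxcl9), and 4 had ratios below 1 in both libraries. The neutrophil attractant Cxcl2 had 2155 and 1920 CPM, against 1168 and 772 CPM. Of 9 measured monocyte genes 3 were higher than in Kupffer cells (S100a6, Fn1 and Thbs1) and 0 lower, with a median log2 ratio of 0.29.

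Of 8 growth factor genes 2 were higher than in Kupffer cells (Vegfa and Gdf15) and 1 lower (Hbegf), against 2.78% and 2.16% of all genes. The angiogenic factor Vegfa had 87.3 and 50.7 CPM, against 21.4 and 24.7 CPM, with ratios of 4.08 (2.22 to 8.34) and 2.05 (0.826 to 5.78), and the stress-induced cytokine Gdf15 had 1448 and 1768 CPM, against 667 and 688 CPM. Vsir, an immune checkpoint ligand, had 128 and 107 CPM, against 44.7 and 38.8 CPM, with ratios of 2.86 (1.86 to 4.59) and 2.75 (1.38 to 5.94). Anxa1, a phospholipid-binding protein that dampens inflammation, had 127 CPM in library 2, against 7.78 CPM in Kupffer cells, a ratio of 16.3 (6.28 to 60.3). In library 4 Anxa1 had 61.3 CPM, against 0 CPM, at least 5.80-fold higher when 3 UMIs are allowed for the 0. The inhibitory Fc receptor Fcgr2b had 185 and 37.3 CPM, against 7.78 and 7.05 CPM. The interferon list had 4 of 16 lower (Ifit1, Ifit3, Cxcl9 and Ifitm3) and 0 higher, with Ifitm3 at 1030 and 608 CPM, against 2251 and 1573 CPM. In cells of 3000 to 6000 UMIs, all from 1 library, 0 of 8 measured interferon genes were called. Of 30 lysosomal genes 1 was higher (Atp6v0d2) and 15 had ratios above 1 in both libraries. MHC class II genes gave no call of 7, with summed levels of 8493 and 12944 CPM, against 9196 and 5765 CPM in Kupffer cells, so that the libraries differed in direction.

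**Figure D4:**
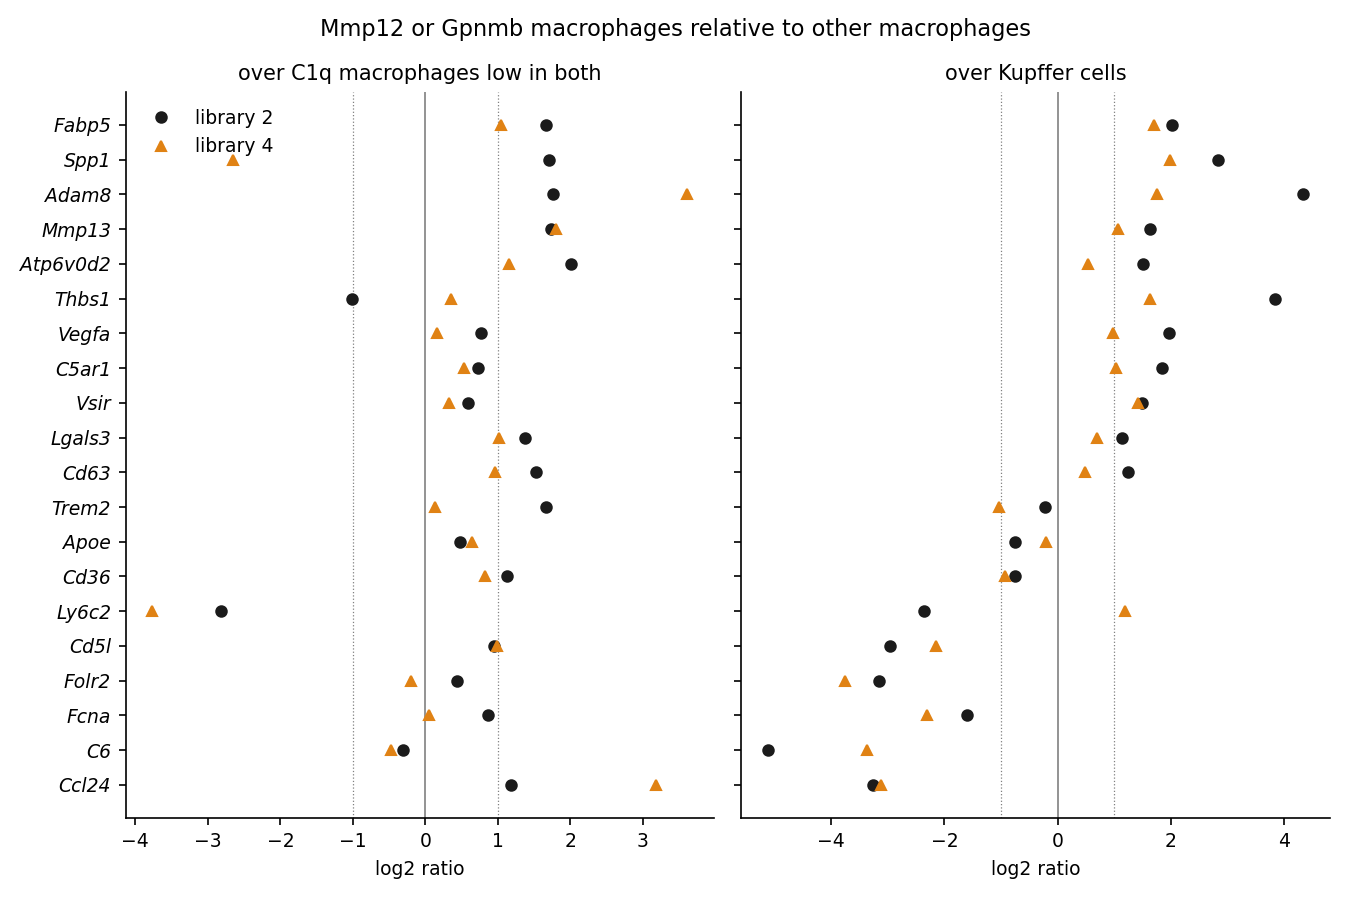
Log2 ratios of CPM in Mmp12 or Gpnmb macrophages over C1q macrophages low in both (left) and over Kupffer cells (right) for 20 genes, in library 2 (circles) and library 4 (triangles); dotted lines mark a ratio of 2 in either direction. Fabp5, Adam8 and Mmp13 lie right of 0 in all 4 values, while Trem2 lies right of 0 against low cells and left of 0 against Kupffer cells.

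The cells also varied among themselves. The 119 cells with a Gpnmb UMI (87 in library 2 and 28 in library 4) were set beside the 279 with Mmp12 only (209 and 55), a split chosen after the data were seen. Median depth was 7447 and 4572.5 UMIs in the cells with Gpnmb, against 4580 and 3234 UMIs in those with Mmp12 only. Of 5205 genes measured, 81 were higher (1.56%) and 190 lower (3.65%). With every cell thinned to 1000 UMIs, 25 genes were higher and 30 lower, and 3 of 17 measured lipid-associated genes were higher with a median log2 ratio of 0.41. The hepatocyte list summed to 5776 and 6926 CPM in the cells with Gpnmb, against 7895 and 11130 CPM, and its part was not tested.

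Trem2 was higher in the cells with Gpnmb. It had 688 and 350 CPM in cells with a Gpnmb UMI of libraries 2 and 4, against 106 and 128 CPM in cells with Mmp12 only, with ratios of 6.49 (5.31 to 7.97) and 2.73 (1.70 to 4.47). Its mean log2 ratio of 2.07 stayed between 1.44 and 2.69 over 13 alternatives, of which leaving out library 1 or 3 cannot change it. With each cell thinned to 2000 UMIs, a Trem2 UMI was held by 48.1% (36.7 to 59.6) and 34.8% (16.4 to 57.3) of the cells with Gpnmb (unthinned, 67.8% and 60.7%), against 15.6% (10.4 to 21.97) and 20.9% (10.0 to 36.0) of those with Mmp12 only (unthinned, 25.8% and 29.1%) and 0.234% and 0.741% of T cells (unthinned, 0.198% and 0.513%). The thinned intervals did not overlap in library 2 and did in library 4. Spp1 had 307 and 168 CPM, against 70.7 and 83.9 CPM, and Fabp5 had 2484 and 2780 CPM, against 1247 and 865 CPM, with ratios of 1.99 (1.86 to 2.14) and 3.21 (2.70 to 3.83). Ctsl was the other member of the 18 lipid-associated genes to be higher, and 37% of its UMIs in the Gpnmb cells of library 2 came from 1 cell. The remaining 14 did not meet the rule, with Lgals3 at ratios of 1.44 and 1.75 and Cd63, Ctsd, Cd9, Vat1 and Tyrobp between 0.963 (Ctsd, library 4) and 1.15 (Tyrobp, library 2). Plin2 had 1.63 and 1.47, Cd36 2.04 and 1.25, Cstb 1.30 and 1.87, Fabp4 1.11 and 1.82 and Ctsb 1.17 and 1.09, while Lpl had 1.21 and 0.889, Lipa 1.17 and 0.751 and Apoe 1.53 and 0.774, on either side of 1.

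Other genes divided the cells as well. Of 8 measured monocyte genes 3 were higher with Gpnmb (Plac8, S100a6 and Thbs1) and 0 lower, against 1.56% and 3.65% of all genes. The median log2 ratio of the 8 was 1.13, with 5 above 1 in ratio in both libraries and 2 below 1 in both. The mean log2 ratio of Plac8 was 3.18, and 0.32 when the rule and sums were taken after thinning to 2000 UMIs. With Gpnmb, Anxa1 had 244 and 121 CPM, against 56.0 and 22.1 CPM, the interleukin antagonist Il1rn 134 and 162 CPM, against 41.4 and 53.0 CPM, and Alox5ap, which helps make leukotrienes, 233 and 209 CPM, against 79.3 and 39.7 CPM. Lysozyme (Lyz2) had 2305 and 1575 CPM, against 1010 and 826 CPM, and the chemokine Ccl2 393 and 162 CPM, against 127 and 35.3 CPM, with 79% of the Ccl2 UMIs of the Gpnmb cells in library 4 from 1 cell. Lower in the cells with Gpnmb were Mmp13 (158 and 256 CPM with Gpnmb, against 351 and 499 CPM with Mmp12 only), the complement component C3 (119 and 114 CPM, against 315 and 234 CPM), the cytokine Il18 (126 and 101 CPM, against 243 and 238 CPM) and the prostaglandin synthase Ptgs1 (21.5 and 40.4 CPM, against 70.7 and 102 CPM). The ratios of Mmp13 were 0.450 (0.361 to 0.557) and 0.513 (0.345 to 0.746). The chemokine Ccl8 had 1593 CPM with Gpnmb, against 475 CPM with Mmp12 only, in library 2, and was at 0 in both groups of library 4. Over all the Mmp12 or Gpnmb macrophages Ccl8 stood at 0, 894, 383 and 0 CPM in libraries 1 to 4, so that libraries 2 and 4 differed in it.

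**Figure D5:**
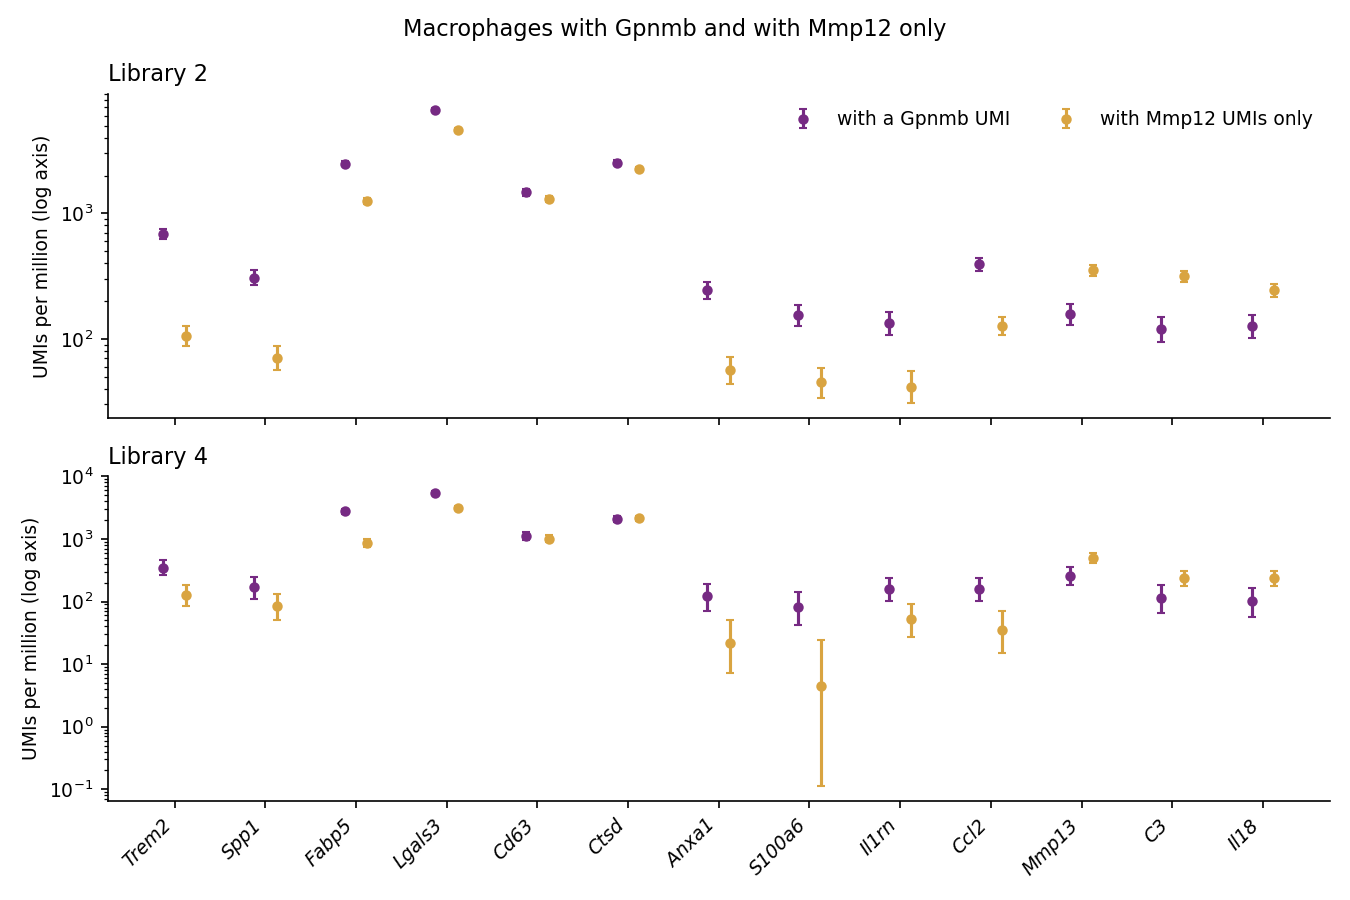
CPM (log axis) of 13 genes in macrophages with a Gpnmb UMI (purple) and with Mmp12 UMIs only (ochre) of libraries 2 and 4, with exact 95% Poisson intervals. Trem2, Spp1 and Fabp5 are higher in the purple group and Mmp13, C3 and Il18 are lower in it, in both libraries.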

How the data were processed

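Digested liver tissue, rid of red blood cells, went into 10x Genomics 3′ libraries, per the labels' protocols. The authors deposited raw UMI counts for each gene in each barcode; per the file headers Cell Ranger 6.0.1 made them, and the submitters' processing notes name mm9 as the build. Which annotation was used is not stated.

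The rule in the report was applied to 38072 barcodes, of which the filter removed 1922. The cells and the gene lists (34 lists, 424 genes, all in the matrix) were chosen with earlier results of these data known. Counts were summed by group and library and scaled to CPM. Intervals (95%) are exact Poisson for CPM, Clopper-Pearson for shares and conditional binomial for ratios, computed with scipy 1.17.1, numpy 2.4.6 and pandas 2.3.3 in Python 3.11.15. Log2 ratios had 0.5 UMI added to each sum, and the 17 genes of the rule were left out of all counts of genes. No test was made, since the pool is 1 sample. Doublets were scored with Scrublet in scanpy 1.11.5 and kept. Named were all lipid-associated genes, up to 30 called list members per comparison (8 per list) and the 15 highest and 15 lowest called genes with at least 100 UMIs (10 and 10 within the macrophages), of which the text gives a selection; other genes were named after their values were seen. A planned comparison of the 31 cells with Gpnmb but no Mmp12 against cells with Mmp12 only could not be computed, since no library had 20 cells of both, and the split by a Gpnmb UMI replaced it. Free RNA was read from T cells, which were chosen with under 2 C1q UMIs and so can understate it. Promoters come from RefSeq, in another build than the counts. Alternatives were other depth, count, doublet and mitochondrial limits, thinning, pooling, other thresholds of the rule and leaving out each library.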

Additional observations from a re-analysis of the deposited data

How the results depend on the processing

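Leaving out library 1 or 3 was among the alternatives and could not turn a sign, since ratios were formed in libraries 2 and 4 only. The totals of values below include these settings. Among named genes that met the rule, the mean log2 ratio turned its sign in 15 of 814 values under an alternative over low cells, in 7 of 660 over Kupffer cells and in 2 of 533 between the cells with Gpnmb and those with Mmp12 only. Among lipid-associated genes that did not meet the rule it did so in 5 of 192 values over low cells, 14 of 225 over Kupffer cells and 15 of 182 with Gpnmb. These were Spp1 (12 of 16 alternatives kept the sign) and Fabp4 over low cells; Cd9 (12 of 15), Ctsd (12 of 15), Trem2, Cstb, Ctsb, Ctsl, Lipa, Lpl, Tyrobp and Vat1 over Kupffer cells; and Cd9 (9 of 13), Lipa (9 of 13), Ctsd, Vat1, Apoe, Lpl and Tyrobp with Gpnmb. With cells thinned to 1000 UMIs the genes that counted were 48 higher and 72 lower over low cells, 63 higher and 42 lower over Kupffer cells, 25 higher and 30 lower with Gpnmb, and among genes that had met the rule the mean log2 ratio turned its sign for Alas2 0.44, Ccnb1 0.63, Hba-a2 0.82, Hbb-bt 0.75, Ube2c 0.38 over low cells and Ccr3 0.45 with Gpnmb. Cells of 3000 to 6000 UMIs came from 1 library in both comparisons, so each log2 ratio there is of that library alone. In these cells the genes that counted were 64 higher and 60 lower over low cells, 78 higher and 34 lower over Kupffer cells. Among genes that had met the rule the log2 ratio turned its sign for Alas2 2.47, Ccnb1 0.54, Hba-a2 1.62, Milr1 -0.30, Tfec -0.075, Tmem104 -0.035, Ube2c 0.62 over low cells and Cxcl9 2.29, Hbb-bs -1.17 over Kupffer cells. With the rule and sums after thinning to 2000 UMIs the genes that counted were 54 higher and 97 lower over low cells, 77 higher and 60 lower over Kupffer cells, 30 higher and 37 lower with Gpnmb, and among genes that had met the rule the mean log2 ratio turned its sign for Ccnb1 0.69, Creb3 -0.12, Nkg7 0.93 over low cells and Clec4e -0.21, Hbb-bs -1.94 over Kupffer cells and Ly6a -0.30 with Gpnmb. With sums pooled over all libraries the genes that counted were 370 higher and 460 lower over Kupffer cells, and among genes that had met the rule the mean log2 ratio turned its sign for Fn1 -0.077, Hbb-bs -2.42 over Kupffer cells. With at least 20 C1q UMIs the genes that counted were 196 lower over low cells, 102 lower with Gpnmb, and among genes that had met the rule the mean log2 ratio turned its sign for Hbb-bs -0.73 over Kupffer cells. Genes with an interval that excluded 1 in both libraries were 63 higher and 128 lower over low cells, 48 higher and 54 lower over Kupffer cells, 30 higher and 34 lower with Gpnmb. The counts that follow are by the ratio rule again, with no condition on the interval. At a minimum of 20 UMIs the genes that counted were 219 higher and 717 lower over low cells, 370 higher and 329 lower over Kupffer cells, 207 higher and 560 lower with Gpnmb, and at 200 UMIs 45 higher and 85 lower over low cells, 38 higher and 32 lower over Kupffer cells, 22 higher and 15 lower with Gpnmb. With Kupffer cells under 2 Mmp12 and Gpnmb UMIs the genes that counted were 355 higher and 237 lower over Kupffer cells. Leaving out 1 library in turn gave 58 to 119 higher and 125 to 371 lower over low cells, 46 to 204 higher and 50 to 139 lower over Kupffer cells and 20 to 81 higher and 28 to 190 lower with Gpnmb, the lowest of each without library 2. Without library 1 or 3 these counts were unchanged by construction. The share of the macrophages was 1.45% of barcodes of at least 1000 UMIs, 0.891% with at least 3 UMIs of Mmp12 and Gpnmb, 1.52% after thinning to 2000 UMIs and 2.01% of the same barcodes unthinned, and 0.364% to 1.47% when 1 library was left out, the lowest without library 2. The cause of these changes was not tested. The depth window, the thinned rule, the C1q limit of 20 and all alternatives of the split by Gpnmb were chosen after seeing the data; the window was not run for that split, since no library had 20 cells of both groups. No paired analysis was possible because no test was made and no library is tied to a numbered replicate; ratios were formed within each library. Most values of libraries 1 and 3 rest on 4 and 15 cells, so that differences there were not detectable at this depth.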
